A study of Mus musculus with 19 samples.

Results

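The genes described here are 10 endothelial and angiogenesis genes, chosen by symbol from the 46078 genes of a table of normalized counts: *Pecam1*, *Cdh5*, *Kdr*, *Flt1*, *Flt4*, *Tek*, *Vegfa*, *Vegfb*, *Angpt1* and *Angpt2*. All 10 symbols matched an Ensembl identifier, and all 10 passed the filter on low values in every comparison. RNA-seq was performed on 19 samples of mouse mammary glands and mammary tumors to ask how mutant p53 in fibroblasts changes gene expression when the *neu* oncogene drives tumor formation. The transgene MMTV-neu drives the oncogene ERBB2 (HER2) in mammary epithelium, and mutant p53 is limited to fibroblasts because the p53wm-R172H allele yields the R172H protein only after recombination by Cre, here under the Fsp promoter. The groups are 3 glands of wild-type mice (MG-WT), 4 glands (MG-N) and 4 tumors (T-N) of *N* mice, and 4 glands (MG-NP) and 4 tumors (T-NP) of *NP* mice. By their labels, all MG-NP and T-NP samples are MMTV-neu;p53wm-R172H/+;Fsp-Cre and all T-N samples are MMTV-neu;Fsp-Cre. MG-N replicate 1 is MMTV-neu;Fsp-Cre, whereas MG-N replicates 2, 3 and 4 are MMTV-neu;p53wm-R172H/+ and carry no Cre, so MG-N differs from T-N in genotype as well as tissue. MG-N and MG-NP glands came from tumor-bearing mice and had no malignant lesion. MG-WT glands came from age-matched mice, the ages of the RNA-seq animals are not given in the sources used here, and the strains had a mixed background. The library names of T-NP replicates 1 and 2 share an animal number, so these may be 2 tumors of the same mouse.

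Blood vessels are lined by endothelial cells, which hold to each other through the adhesion molecule encoded by *Pecam1* (CD31) and through VE-cadherin, encoded by *Cdh5*. New vessels sprout when VEGF-A binds the receptor tyrosine kinase VEGFR2, encoded by *Kdr*, while VEGFR1 (*Flt1*) binds VEGF-A and VEGF-B and limits the signal, and VEGFR3 (*Flt4*) acts mainly in lymphatic vessels. The angiopoietins act through a further endothelial receptor, TIE2 (*Tek*): angiopoietin-1 from cells around the vessel stabilizes it, and angiopoietin-2, made by activated endothelium, counters angiopoietin-1 and loosens the vessel wall.

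The samples differed in cell content, and the part of this in the results was tested only where an alternative is named. Libraries held 20899152 to 27262440 reads on genes in the 16 libraries of *N* and *NP* mice and 54677315 to 62645459 in MG-WT. *Erbb2*, a check of the transgene, had 73426 to 155042 normalized counts in tumors, against 1845 to 14718 in the 11 glands. *Trp53*, the mutated gene, had 483 to 2297 normalized counts over all libraries, and a gene count cannot show the R172H change. The list of 9 luminal epithelium markers was lower in MG-N and MG-NP than in MG-WT for 9 of 9 genes, and the 9 white adipocyte markers were higher for 9 of 9. In tumors against their glands all 9 white adipocyte markers were lower, in both genotypes, and of the 9 luminal epithelium markers 7 rose and 1 fell in T-N (median log2 fold change 2.57) and 8 rose and 1 fell in T-NP (median 2.64). Of 8 fibroblast genes 6 fell in T-N against MG-N and 5 in T-NP against MG-NP, and of 8 leukocyte genes 7 and 6 fell. Skeletal muscle transcripts (12 genes) took 0.0466% to 7.56% of the reads in MG-NP and at most 0.102% in any other library, with MG-NP replicate 2 at 7.56% and replicate 4 at 4.12%. Among tumors, T-N replicate 3 stood apart, with 0.982% of its reads on 8 fibroblast genes against 0.104% to 0.205% in the other 7 tumors. In whole tissue, fewer endothelial cells and less RNA per cell cannot be told apart.

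The 250 bases upstream of the RefSeq start (GRCm38.p6, 5′ to 3′ along the gene) are given for *Tek*, *Kdr*, *Flt1* and *Vegfa*. The first 3 are vascular receptor genes that fell in tumors. *Vegfa* encodes a ligand of the receptors of *Kdr* and *Flt1*, not of *Tek*, and did not pass the test in tumors against glands. Capitals mark any match, on either strand, to AGGAAG or CGGAAG (ETS), ACGTG or GCGTG (hypoxia response), TATAAA (the core promoter box of that name), GGGCGG (GC box) or GTAAACA (forkhead).
Tek, chr4:94739039-94739288, plus strand: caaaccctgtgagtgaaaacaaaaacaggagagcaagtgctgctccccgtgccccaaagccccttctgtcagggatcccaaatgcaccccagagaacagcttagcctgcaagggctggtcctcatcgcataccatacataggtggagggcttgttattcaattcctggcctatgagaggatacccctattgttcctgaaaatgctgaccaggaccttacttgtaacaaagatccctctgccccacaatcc
Kdr, chr5:75978456-75978705, minus strand: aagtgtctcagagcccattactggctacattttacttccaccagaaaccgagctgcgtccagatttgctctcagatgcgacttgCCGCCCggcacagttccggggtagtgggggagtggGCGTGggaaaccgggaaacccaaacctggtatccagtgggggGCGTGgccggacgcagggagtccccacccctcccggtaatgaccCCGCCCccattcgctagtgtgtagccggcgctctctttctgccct
Flt1, chr5:147726012-147726261, minus strand: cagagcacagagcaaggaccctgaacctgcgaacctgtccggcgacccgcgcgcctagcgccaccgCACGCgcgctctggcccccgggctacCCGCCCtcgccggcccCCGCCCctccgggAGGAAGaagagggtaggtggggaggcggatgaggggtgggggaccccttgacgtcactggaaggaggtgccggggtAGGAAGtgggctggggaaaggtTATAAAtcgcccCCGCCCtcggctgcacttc
Vegfa, chr17:46032378-46032627, minus strand: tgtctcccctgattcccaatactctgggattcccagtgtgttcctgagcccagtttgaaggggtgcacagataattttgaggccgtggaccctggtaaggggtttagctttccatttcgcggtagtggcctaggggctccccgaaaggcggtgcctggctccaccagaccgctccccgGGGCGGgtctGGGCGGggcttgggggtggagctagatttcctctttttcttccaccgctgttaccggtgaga

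*Flt1* held 2 ETS matches, 1 hypoxia response match, 1 TATAAA and 3 GC boxes in this window, *Kdr* held 2 hypoxia response matches and 2 GC boxes, *Vegfa* held 2 GC boxes and *Tek* held 0 matches to the 5 motifs. Of 32851 promoters of the same length, 39.2% held an ETS match, 38.6% a hypoxia response match, 32.7% a GC box, 12.4% TATAAA and 3.17% a forkhead match, so most of these letters are common. A second *Vegfa* window, within the gene, held 2 hypoxia response matches, as did the *Vegfb* window. Windows were found for 6 of the 10 genes, including *Flt4* with 3 GC boxes. *Pecam1*, *Cdh5*, *Angpt1* and *Angpt2* had none in the table used.

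Every tumor lay below every gland for *Pecam1*, *Cdh5*, *Kdr*, *Flt1* and *Tek*, while *Flt4*, *Vegfa*, *Vegfb*, *Angpt1* and *Angpt2* overlapped between the 8 tumors and the 11 glands. The share of all genes that separate in this way was not counted. Between T-N and MG-N 49.2% of all genes tested did not overlap, and between T-NP and MG-NP 52.6%, so such a gap is common. The values of every library are given gene by gene, by role, and normalized counts are reads divided by the size factor of the library.

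**Figure D1:**
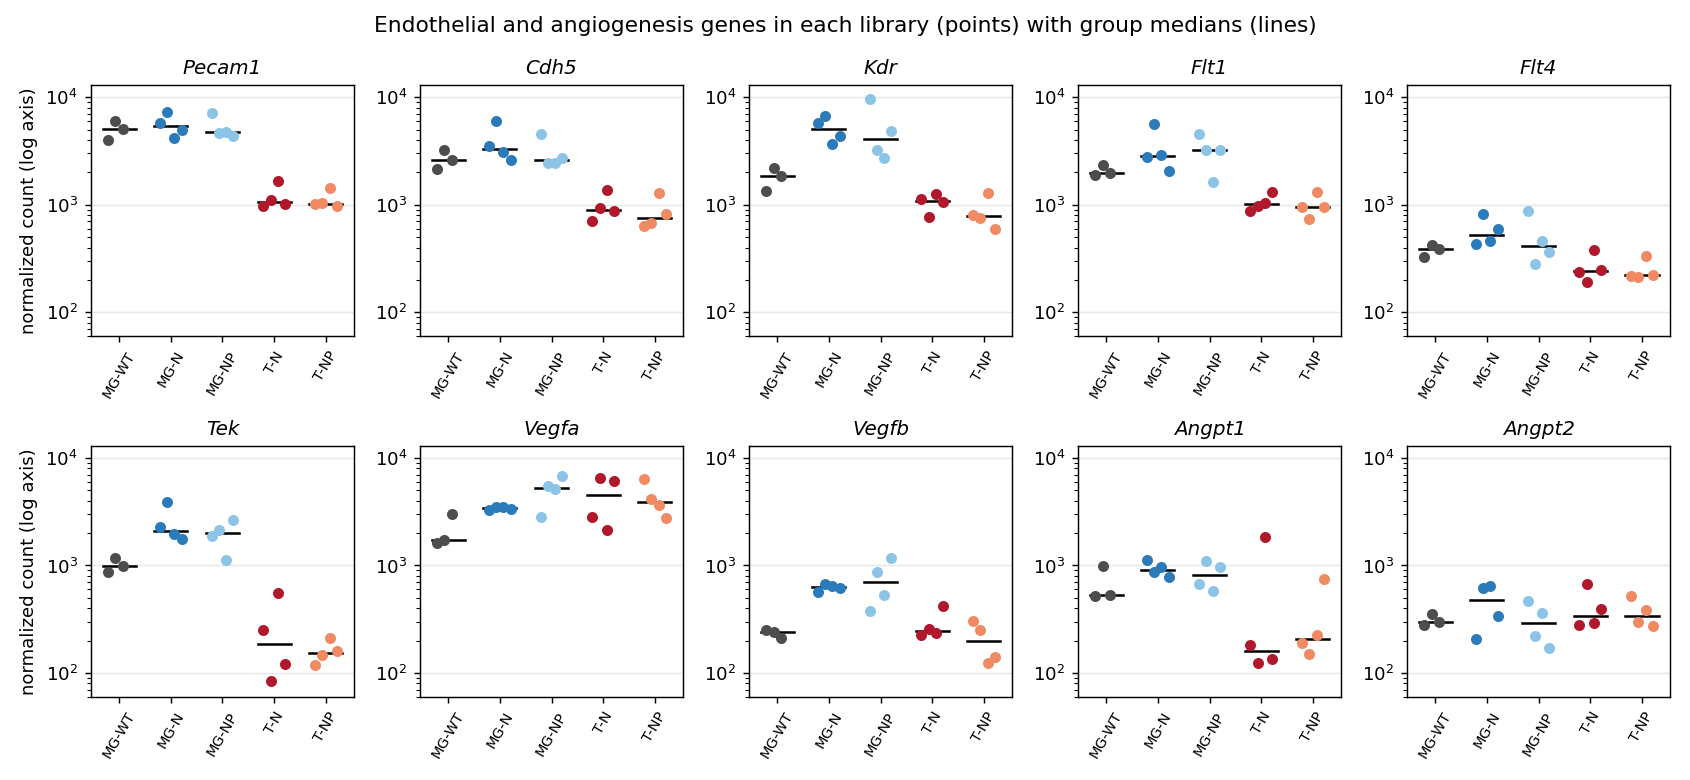
Normalized counts (log axis) of the 10 genes in each of the 19 libraries (points, left to right by replicate) in the 5 groups, with the median of each group as a line. *Pecam1* lay between 4001 and 7302 in the 11 glands and between 968 and 1661 in the 8 tumors, whereas *Vegfa* overlapped between glands and tumors.

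*Pecam1* (ENSMUSG00000020717, chromosome 11: 106654217 to 106750628, minus strand) was at 4001, 5991 and 5033 normalized counts in MG-WT, 5795, 7302, 4187 and 5000 in MG-N glands, and 7150, 4686, 4786 and 4349 in MG-NP glands. In tumors it was at 968, 1109, 1661 and 1026 in T-N and at 1025, 1028, 1438 and 980 in T-NP. The 3 gland groups overlapped, the 2 tumor groups overlapped, and every tumor lay below every gland. *Pecam1* fell by 2.23 ± 0.22 (SE) on the log2 scale in T-N against MG-N and by 2.22 ± 0.19 in T-NP against MG-NP, a 4.69-fold and a 4.65-fold fall, with limma adjusted p-values of 0.000161 and 4.91e-05 (n = 4 in each group).

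*Cdh5* (ENSMUSG00000031871, chromosome 8: 104101625 to 104144511, plus strand) was at 2163, 3249 and 2618 in MG-WT, 3510, 5980, 3105 and 2633 in MG-N glands, and 4574, 2464, 2440 and 2721 in MG-NP glands. The tumor values were 713, 932, 1384 and 873 in T-N and 639, 672, 1294 and 820 in T-NP, and again no tumor reached a gland. It fell by 1.93 ± 0.29 in T-N against MG-N and by 1.84 ± 0.28 in T-NP against MG-NP (limma adjusted p = 0.000832 and 0.000733).

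*Kdr* (ENSMUSG00000062960, chromosome 5: 75932827 to 75978458, minus strand) had 3 levels rather than 2 in normalized counts. It was at 1346, 2185 and 1832 in MG-WT, at 5702, 6637, 3648 and 4379 in MG-N glands, and at 9590, 3254, 2734 and 4885 in MG-NP glands. In tumors it was at 1130, 774, 1265 and 1054 in T-N and at 807, 750, 1285 and 598 in T-NP. The MG-N and MG-NP values lay above all 3 MG-WT values, which in turn lay above every tumor, though MG-WT and tumors were not compared by a test. As length-scaled values (TPM, described below), MG-NP at 26.4 to 105 overlapped MG-WT at 21.7 to 35.9, so this order depends on the scaling. *Kdr* rose by 1.5 ± 0.24 in MG-N and by 1.37 ± 0.43 in MG-NP over MG-WT (limma adjusted p = 0.000947 and 0.0333), and fell by 2.25 ± 0.22 in T-N and by 2.45 ± 0.40 in T-NP against the matched glands (adjusted p = 0.000158 and 0.00102).

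*Flt1* (ENSMUSG00000029648, chromosome 5: 147561604 to 147726011, minus strand) was at 1888, 2348 and 1968 in MG-WT, at 2772, 5588, 2883 and 2052 in MG-N glands, and at 4572, 3237, 1634 and 3249 in MG-NP glands. The tumors held 878, 982, 1033 and 1321 in T-N and 954, 729, 1313 and 958 in T-NP. The gland groups overlapped, and each tumor group lay below its glands. *Flt1* fell by 1.57 ± 0.29 in T-N against MG-N and by 1.62 ± 0.31 in T-NP against MG-NP (limma adjusted p = 0.00232 and 0.00246). With the skeletal muscle score as a covariate the value of T-NP against MG-NP was -0.86 and missed the threshold (adjusted p = 0.163).

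*Flt4* (ENSMUSG00000020357, chromosome 11: 49609263 to 49652739, plus strand) had the smallest falls of the 4 receptor genes. It was at 327, 422 and 389 in MG-WT, at 432, 818, 465 and 589 in MG-N, at 875, 284, 458 and 367 in MG-NP, at 236, 190, 382 and 250 in T-N, and at 218, 215, 336 and 222 in T-NP. The T-N values lay below the MG-N values, whereas T-NP replicate 3 overlapped MG-NP. *Flt4* fell by 1.12 ± 0.28 in T-N against MG-N (limma adjusted p = 0.00935). The log2 fold change in T-NP against MG-NP was -0.89 ± 0.34 and missed the threshold (adjusted p = 0.0516), but passed it with edgeR (adjusted p = 0.043), with DESeq2 (adjusted p = 0.0191), without MG-NP replicate 2 (-1.12, adjusted p = 0.0234) and without T-NP replicate 3 (-1.05, adjusted p = 0.0435).

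*Tek* (ENSMUSG00000006386, chromosome 4: 94739289 to 94874976, plus strand) fell the most. It was at 871, 1183 and 992 in MG-WT, at 2284, 3873, 1944 and 1750 in MG-N glands, and at 1871, 2128, 1118 and 2647 in MG-NP glands. In T-N it was at 251.1, 84.3, 550 and 123, and in T-NP at 120, 148, 210 and 161. Every tumor lay below every gland, and the highest tumor value was that of T-N replicate 3, the tumor with the most fibroblast transcripts. The fall was 3.58 ± 0.55 in T-N against MG-N, which is 11.98-fold, and 3.56 ± 0.28 in T-NP against MG-NP, which is 11.8-fold (limma adjusted p = 0.000974 and 3.15e-05). The call of T-N against MG-N held without T-N replicate 3. *Tek* was also higher in MG-N than in MG-WT, by 1.22 ± 0.26 (adjusted p = 0.0046), and in MG-NP than in MG-WT, by 0.88 ± 0.29 (adjusted p = 0.0402). This last value turned to -0.61 (limma adjusted p = 0.33) with the skeletal muscle score as a covariate, and its call was lost in 6 of 7 leave-one-out fits. With the same covariate *Tek* was at -2.59 in T-NP against MG-NP and passed the threshold.

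*Vegfa* (ENSMUSG00000023951, chromosome 17: 46016993 to 46032369, minus strand) was at 1613, 1707 and 3032 in MG-WT, at 3262, 3503, 3468 and 3344 in MG-N glands, and at 2835, 5493, 5091 and 6813 in MG-NP glands. The tumors held 2814, 6511, 2150 and 6137 in T-N and 6336, 4113, 3673 and 2747 in T-NP. MG-N was tight, and each tumor group spread around the values of its glands. The log2 fold changes were 0.22 (95% confidence interval -0.57 to 1.003) in T-N against MG-N and -0.26 (-0.98 to 0.47) in T-NP against MG-NP, with limma adjusted p-values of 0.623 and 0.512. *Vegfa* rose by 0.74 ± 0.21 in MG-N and by 1.25 ± 0.34 in MG-NP over MG-WT (adjusted p = 0.0154 and 0.0211).

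*Vegfb* (ENSMUSG00000024962, chromosome 19: 6982473 to 6987651, minus strand), a VEGF linked to fatty acid handling in tissues rich in mitochondria, was at 250, 242 and 210 in MG-WT, at 571, 677, 648 and 621 in MG-N glands, and at 379, 865, 533 and 1170 in MG-NP glands. In T-N it was at 224, 256, 233 and 419 and in T-NP at 303, 254, 125 and 141. MG-N and MG-NP lay above MG-WT and above their tumors with no overlap. *Vegfb* rose by 1.42 ± 0.13 in MG-N and by 1.52 ± 0.38 in MG-NP over MG-WT (limma adjusted p = 5.64e-05 and 0.014). It fell by 1.20 ± 0.22 in T-N and by 1.80 ± 0.42 in T-NP against the glands (adjusted p = 0.00225 and 0.00616).

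*Angpt1* (ENSMUSG00000022309, chromosome 15: 42424723 to 42676977, minus strand) was at 524, 982 and 527 in MG-WT, at 1132, 867, 962 and 774 in MG-N glands, and at 666, 1093, 585 and 966 in MG-NP glands. It was at 182.9, 124, 1832 and 134 in T-N and at 190.6, 151, 227 and 744 in T-NP. A single tumor in each group, T-N replicate 3 and T-NP replicate 4, reached the level of the glands, and the other 6 tumors lay below all 11 glands. *Angpt1* fell by 1.60 ± 0.47 in T-NP against MG-NP (limma adjusted p = 0.0192). This call was lost with edgeR (-1.31, adjusted p = 0.0546), without T-NP replicate 1 (-1.44, adjusted p = 0.0518), without T-NP replicate 2 (-1.33, adjusted p = 0.0534), with these 2 samples averaged (-1.38, adjusted p = 0.0517) without MG-NP replicates 2 and 4 (-1.24, adjusted p = 0.119) and with the skeletal muscle score as a covariate (-0.54, adjusted p = 0.583). In T-N against MG-N the log2 fold change was -1.75 ± 0.78 (adjusted p = 0.0882), and without T-N replicate 3 it was -2.66 (adjusted p = 8.51e-05), while edgeR on all samples gave -0.69 (adjusted p = 0.523). The exons of *Angpt1* share 737 bases, 14.2% of its exon bases, with the antisense gene *Gm17473*, which was at 0 to 32.8 normalized counts. The exons of the other 9 genes overlapped no other gene of the annotation.

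*Angpt2* (ENSMUSG00000031465, chromosome 8: 18690263 to 18741562, minus strand) was at 278, 351 and 301 in MG-WT, at 208, 621, 642 and 338 in MG-N glands, and at 464, 220, 362 and 172 in MG-NP glands. In tumors it was at 277, 675, 291 and 390 in T-N and at 519, 301, 383 and 276 in T-NP. All 5 groups overlapped. The log2 fold changes were -0.10 (95% confidence interval -1.06 to 0.86) in T-N against MG-N and 0.34 (-0.44 to 1.13) in T-NP against MG-NP, with limma adjusted p-values of 0.861 and 0.422. The ratio of *Angpt2* to *Angpt1* normalized counts, which takes no account of gene length, had a median of 0.530 in MG-WT, 0.552 in MG-N and 0.410 in MG-NP, against 2.21 in T-N and 1.84 in T-NP. It ranged from 0.178 to 0.716 in the 11 glands and from 1.52 to 5.43 in 6 tumors, and was 0.159 in T-N replicate 3 and 0.371 in T-NP replicate 4.

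Levels of different genes are compared here only per length, as length-scaled values (TPM) from the recovered reads and the exon length of each gene. In MG-WT the median was highest for *Pecam1* (113), followed by *Cdh5* (87.1), *Vegfa* (59.2), *Tek* (29.4), *Kdr* (28.3), *Vegfb* (22.4), *Flt1* (20.4), *Angpt1* (14.7), *Angpt2* (11.4) and *Flt4* (6.60). Neighbours such as *Tek* (26.9 to 37.3) and *Kdr* (21.7 to 35.9) overlapped over the 3 glands. In tumors *Vegfa* came first, with a median of 62.2 in T-N and 50.3 in T-NP, and *Cdh5* (13.8 in T-N) and *Pecam1* (11.1 in T-N) followed at close levels. *Tek* was among the first 4 genes in MG-WT and among the last 3 in tumors, with medians of 2.42 in T-N and 1.95 in T-NP, beside *Angpt1* (1.93 and 2.50) and *Flt4* (1.78 and 1.80).

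The comparison of tumors with glands addresses what changes as *neu* tumors form. In T-N against MG-N, 7 of the 10 genes fell and 0 rose, at an adjusted p under 0.05, where 51.3% of all 17950 genes tested were called and 27.8% were called lower. In T-NP against MG-NP, 7 of the 10 fell and 0 rose, where 55.5% of 17880 genes were called and 29.3% were called lower. *Pecam1*, *Cdh5*, *Kdr*, *Flt1*, *Tek* and *Vegfb* fell in both, *Flt4* passed the threshold only in the first and *Angpt1* only in the second, and the interaction of tissue and genotype called neither difference (limma adjusted p = 0.953 and 0.987). The median log2 fold change of the 10 genes was -1.66 and -1.71, against medians of -0.05 and -0.07 over all genes tested. Without T-N replicate 3, 8 of the 10 fell in T-N against MG-N, where 49.5% of 18528 genes tested were called, 5187 of them lower. Values that did not overlap between T-N and MG-N were found for 49.2% of all genes tested, and between T-NP and MG-NP for 52.6%. With the skeletal muscle score as a covariate, 3 of the 10 genes were called in T-NP against MG-NP, *Pecam1* (-2.18), *Cdh5* (-1.49) and *Tek* (-2.59), where 28.7% of all genes were called. In that fit *Kdr* (-2.07, limma adjusted p = 0.0522), *Flt1* (-0.86, adjusted p = 0.163) and *Vegfb* (-1.74, adjusted p = 0.108) missed the threshold. The score itself differed between these tissues (8.86 to 16.9 in MG-NP and 3.47 to 8.54 in T-NP, mean log2 value). With MG-NP replicates 2 and 4 left out together, 7 of the 10 genes were called, where 53.6% of all genes were called. A two-sided exact permutation test on mean log2 values gave p = 0.0286, the smallest that 4 against 4 samples allow, for each gene called in T-N against MG-N and for 6 of the 7 called in T-NP against MG-NP, and p = 0.0857 for *Angpt1*. These p-values are unadjusted, and 60 such tests were made.

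**Figure D2:**
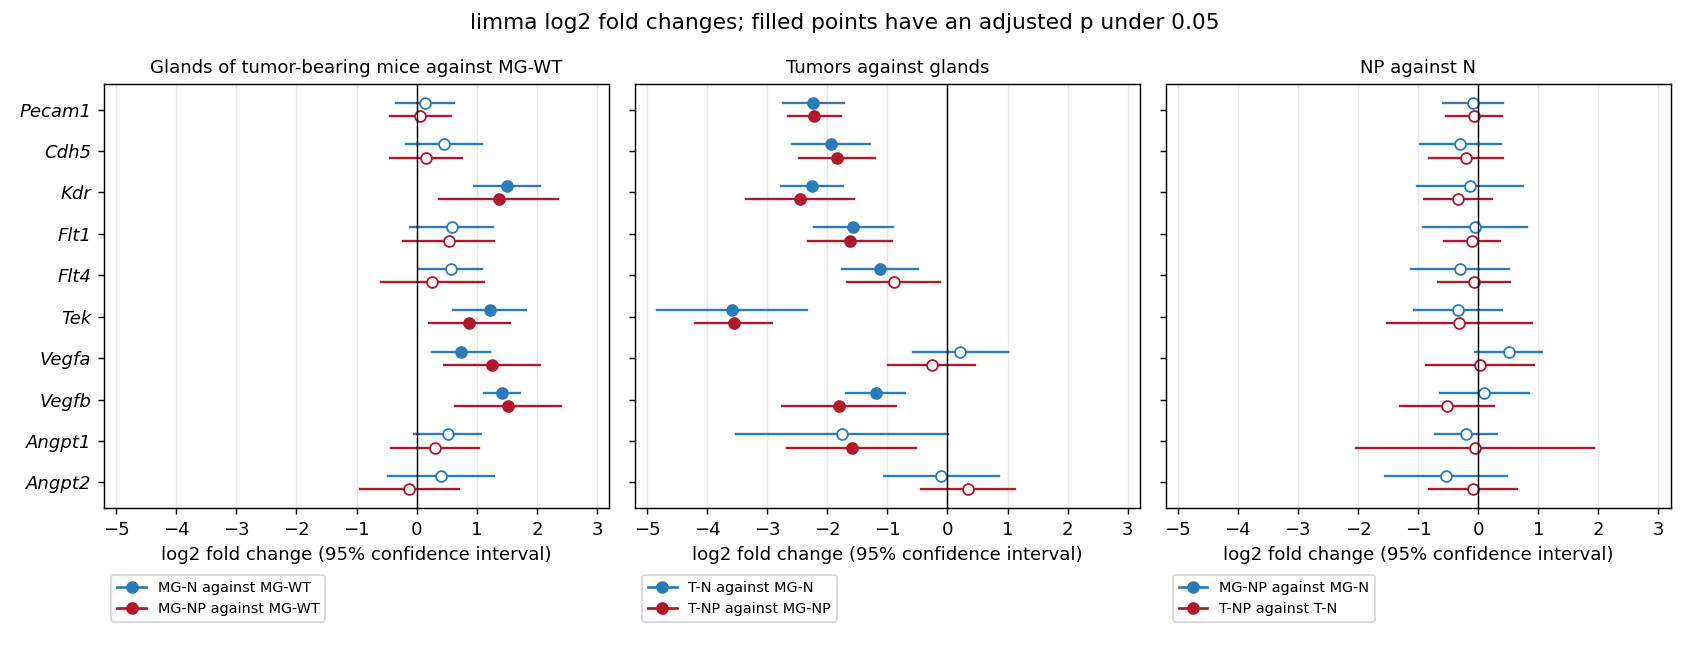
Log2 fold changes of the 10 genes with 95% confidence intervals from limma, in glands against MG-WT (left), tumors against glands (middle) and *NP* against *N* (right), where filled points have an adjusted p under 0.05. *Tek* lies at -3.58 and -3.56 in the middle panel, and no point is filled in the right panel.

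The other genes of the vascular lists gave the setting for these falls. In the list of 17 blood endothelium genes, 17 of 17 fell in T-N against MG-N and 17 of 17 in T-NP against MG-NP, with median log2 fold changes of -2.10 and -2.09. Leaving out T-N replicate 3, or MG-NP replicates 2 and 4, left these counts at 17 of 17. The largest falls were those of *Cldn5* (-3.63), a tight junction protein of endothelium, and *Vwf* (-3.53), the clotting factor stored by endothelial cells, in T-N, and of *Sox17* (-3.08) and *Vwf* (-3.06) in T-NP. Of 6 lymphatic endothelium genes 5 fell in both comparisons, led by the chemokine gene *Ccl21a* (-8.17 and -6.20) and by *Mmrn1* (-5.59 and -4.68), and the defining factor *Prox1* did not pass the test (-3.10, adjusted p = 0.1 in T-N against MG-N, and -1.10, adjusted p = 0.17 in T-NP against MG-NP). Without T-N replicate 3, 4 of the 6 fell, and without MG-NP replicates 2 and 4 all 6 fell. *Ccl21a* was at 0 to 3 normalized counts in T-N and at 0 to 62 in T-NP, so its fold changes depend on the pseudocount.

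Genes of arterial and venous endothelium did not all move one way. Of 6 arterial genes 3 fell in T-N against MG-N and 4 in T-NP against MG-NP, while the Notch target *Hey1*, which is also expressed outside vessels, rose in both (4.15 and 4.72). *Sema3g* fell in both (-3.42 and -3.24). Of 5 venous genes 4 fell in both comparisons, led by *Ackr1* (-5.55) and *Selp* (-3.75) in T-N and by *Sele* (-4.61) and *Ackr1* (-4.20) in T-NP. The venous receptor gene *Ephb4*, which mammary epithelium also expresses, rose in both (1.77 and 1.85).

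Of the 8 tip cell and sprouting genes 4 rose in both comparisons. *Apln*, which encodes the peptide apelin (2.52 in T-N and 2.19 in T-NP), and *Esm1*, a tip cell marker (2.42 and 2.52), rose in both, as did *Kcne3* (1.61 and 2.82) and *Unc5b* (1.01 and 1.25). *Esm1* was at 27 to 178 normalized counts in the 11 glands and at 151 to 598 in the 8 tumors. The apelin receptor gene *Aplnr* fell in both (-1.90 and -1.35). In the same list *Dll4* and *Adm* did not pass the test in either comparison, and *Notch4* fell in T-NP against MG-NP (-0.81) and gave -0.85 (adjusted p = 0.12) in T-N against MG-N. Without T-N replicate 3 the count of genes that rose in T-N was 3 of 8.

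Among 8 other genes of the VEGF and angiopoietin system 7 were tested, and 5 fell in T-N against MG-N and 6 in T-NP against MG-NP. *Pgf*, which encodes placental growth factor, a ligand of VEGFR1, was the exception and rose by 3.45 and by 4.97, from 67 to 284 normalized counts in MG-N and MG-NP to 571 to 7585 in tumors. *Vegfd*, a ligand of VEGFR3, fell in both (-4.64 and -3.29), and *Ptprb*, the endothelial phosphatase that acts on TIE2, fell as well (-3.14 and -3.08). *Nrp1*, *Nrp2* and *Tie1* fell in both comparisons, and *Vegfc* fell in T-NP against MG-NP (-2.09) and gave -1.15 (adjusted p = 0.25) in T-N against MG-N. Of 8 mural cell genes 3 fell and 1 rose in T-N against MG-N, and 4 fell and 1 rose in T-NP against MG-NP. *Cspg4* (NG2) fell in both (-2.35 and -1.89), *Des* fell (-5.80) in T-NP against the muscle-rich MG-NP glands, and *Notch3* rose by 0.95 and by 0.79.

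**Figure D3:**
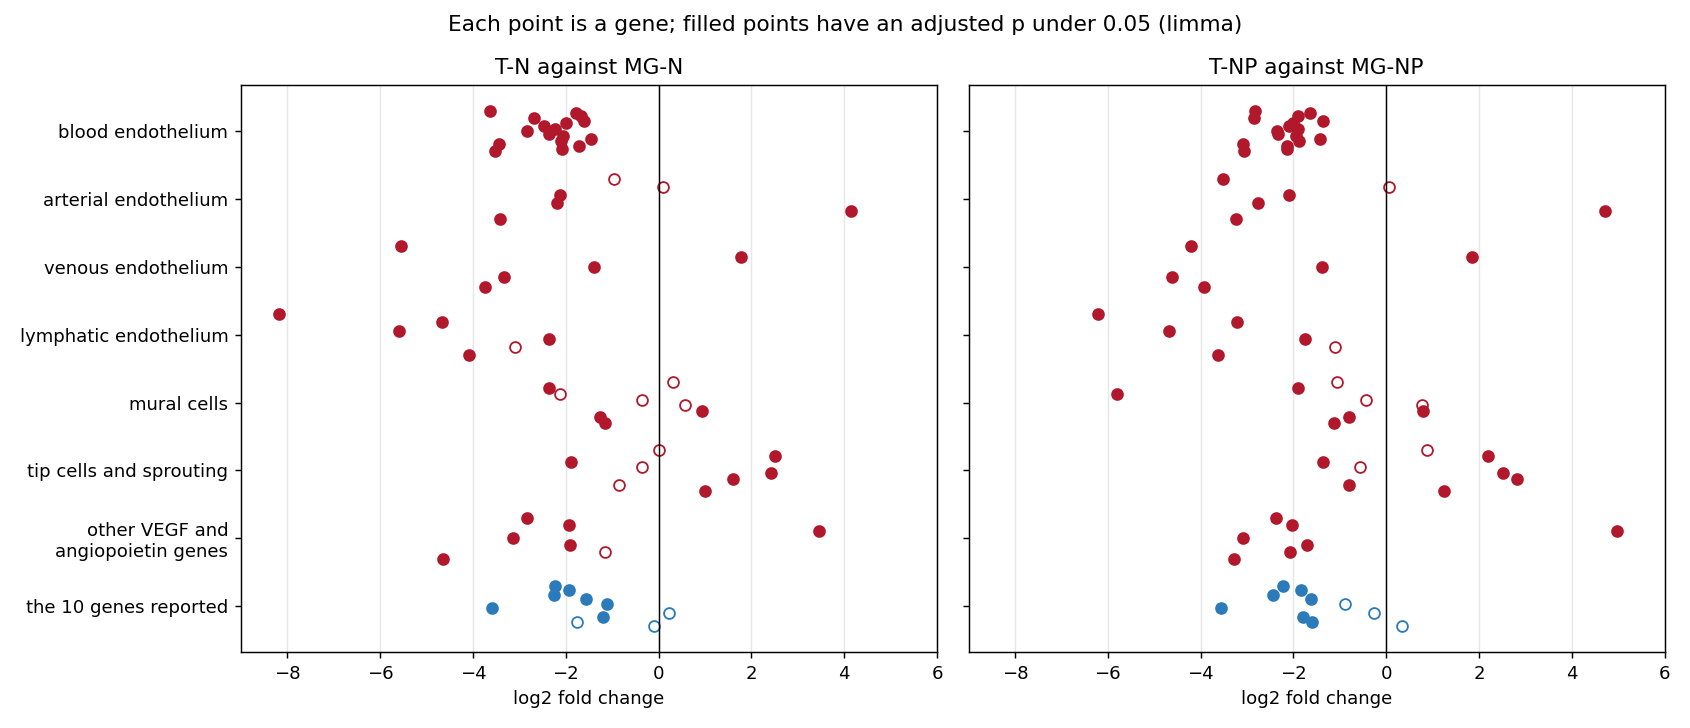
Log2 fold change of each gene of 7 vascular lists (red) and of the 10 genes reported (blue), in T-N against MG-N (left) and T-NP against MG-NP (right), where filled points have an adjusted p under 0.05 (limma). All 17 blood endothelium genes lie left of 0, and 4 of the 8 tip cell and sprouting genes are filled and right of 0, in both panels.

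To ask which members departed from the endothelial genes as a whole, each log2 level was set against the mean log2 level of the 17 blood endothelium genes in the same library, a measure in which a general loss of endothelial transcripts cancels. *Pecam1* moved with the list: the relative level differed by 0.10 in T-N against MG-N and by -0.04 in T-NP against MG-NP (two-sided exact permutation p = 0.457 and 0.686). *Kdr* differed by 0.08 and by -0.28 (exact permutation p = 0.857 and 0.429). Relative to the list, *Tek* was lower in tumors than in the matched glands, by 1.25 and by 1.38, and *Flt4* was higher, by 1.21 and by 1.28. Tumors and matched glands did not overlap in each case, with an exact permutation p of 0.0286, the smallest possible. In MG-WT the relative level of *Tek* was 0.50 to 0.55, inside the range of T-N (-0.75 to 1.07) and above that of T-NP (-0.27 to 0.12). The relative level of *Tek* was higher than in MG-WT by 0.95 in MG-N and by 0.79 in MG-NP. *Cdh5* was higher by 0.40 in T-N (p = 0.0286, exact permutation) and by 0.34 in T-NP (p = 0.0857, exact permutation). *Flt1* was higher by 0.76 and by 0.55 (exact permutation p = 0.0571 and 0.0857).

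*Vegfa* and *Angpt2* had the largest differences from the endothelial list. Relative to it, *Vegfa* was higher by 2.55 in T-N and by 1.92 in T-NP, and *Angpt2* by 2.23 and by 2.52, each with no overlap and an exact permutation p of 0.0286. The levels of *Vegfa* (0.22 and -0.26) and *Angpt2* (-0.10 and 0.34) did not themselves pass the test. These relative differences therefore come mostly from the fall of the list (median -2.10 and -2.09), already given above. *Vegfb* was higher by 1.13 in T-N (exact permutation p = 0.0286) and by 0.37 in T-NP (exact permutation p = 0.514). *Angpt1* differed by 0.58 in both (exact permutation p = 0.657 and 0.429), with T-N replicate 3 and T-NP replicate 4 far above the other tumors. The p-values of the relative levels are unadjusted and from a second family of 60 tests, and neither *Vegfa* nor *Vegfb* is made only by endothelium.

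**Figure D4:**
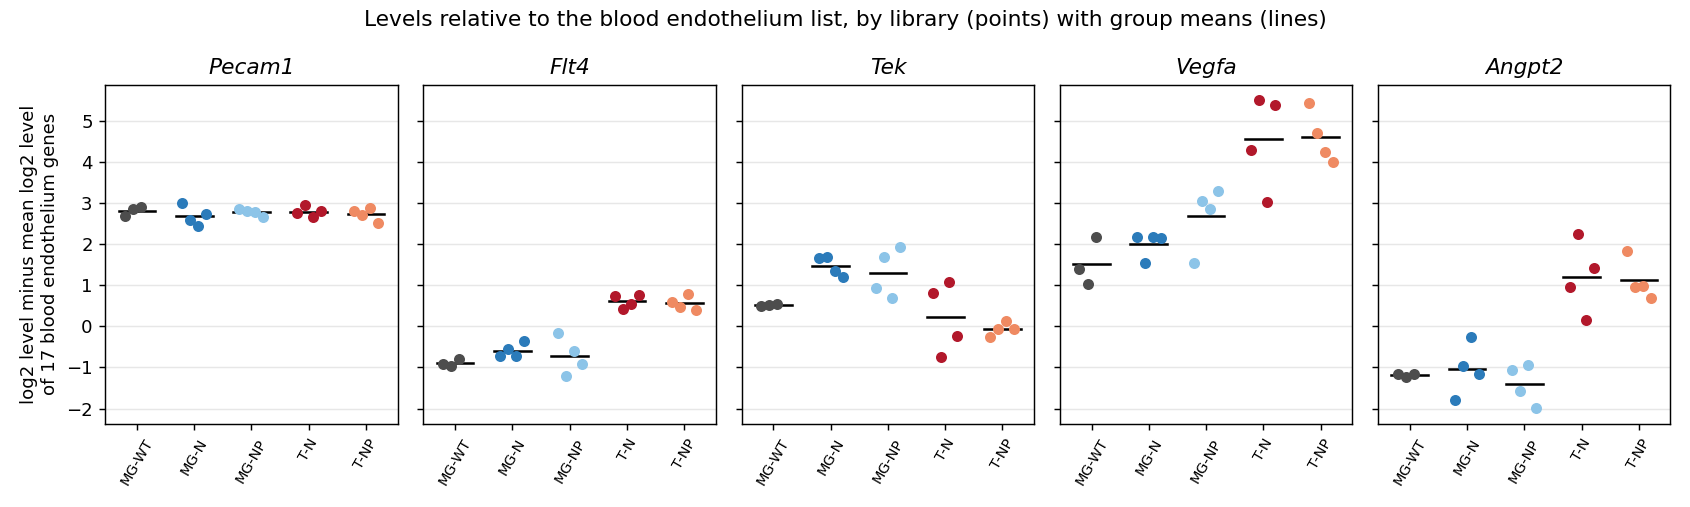
Log2 level of 5 of the genes minus the mean log2 level of 17 blood endothelium genes, in each library (points) with the group mean (line). *Pecam1* stays between 2.45 and 3.01 in all 5 groups, *Tek* is lower and *Flt4*, *Vegfa* and *Angpt2* are higher in tumors than in MG-N and MG-NP.

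Setting MG-N and MG-NP against the wild-type glands addresses what differs in glands without a lesion. MG-N differed from MG-WT in 4 of the 10 genes, all higher (*Kdr*, *Tek*, *Vegfa* and *Vegfb*), where 59.1% of 19017 genes tested were called and 30.0% were called higher. In MG-NP against MG-WT the same 4 genes rose and 0 fell, where 46.4% of 19065 genes were called and 22.4% were called higher. The MG-WT glands are shared by these 2 comparisons, which are therefore not independent. Over all genes tested, the values did not overlap for 61.3% between MG-N and MG-WT and for 54.4% between MG-NP and MG-WT, while among the 10 genes *Kdr* and *Vegfb* did not overlap in either, and *Flt4*, *Tek* and *Vegfa* did not in MG-N. *Pecam1* did not pass the test, with log2 fold changes of 0.14 (95% confidence interval -0.34 to 0.63) and 0.06 (-0.45 to 0.57), and *Cdh5* gave 0.46 (-0.18 to 1.09) and 0.16 (-0.45 to 0.76). *Flt1*, *Flt4*, *Angpt1* and *Angpt2* gave values between -0.13 and 0.59 and passed in neither.

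Several calls against MG-WT, most of them in MG-NP, did not hold in every leave-one-out fit. In MG-NP against MG-WT, 1 of the 10 genes remained called without MG-WT replicate 1, 2 or 3, 2 without MG-NP replicate 4, 2 without MG-NP replicates 2 and 4, and 0 with the skeletal muscle score as a covariate. Over all genes tested, 46.4% were called with all samples. Without MG-WT replicate 1, 2 or 3 this share was 30.8%, 33.4% or 31.7%. It was 43.1% without MG-NP replicate 4, 51.5% without MG-NP replicates 2 and 4, and 11.3% with the covariate. *Kdr* gave 1.17 to 1.52 and *Tek* 0.77 to 0.99 when an MG-WT gland was left out, and *Tek* kept its call only without MG-NP replicate 3 among the leave-one-out fits. In MG-N against MG-WT, 6 genes were called without MG-N replicate 1, where 56.3% of all genes were called. *Vegfa* lost its call without MG-WT replicate 1 (0.58, adjusted p = 0.0648) or replicate 2 (0.62, adjusted p = 0.0611). *Kdr*, *Tek* and *Vegfb* kept theirs in every leave-one-out fit of MG-N against MG-WT. With 3 against 4 samples the exact permutation test cannot go below p = 0.0571, which *Kdr* and *Vegfb* reached in both comparisons. *Tek*, *Vegfa* and *Flt4* reached it in MG-N only, where *Flt4* was not called with limma (adjusted p = 0.0639). MG-WT libraries were read more deeply than the others, and whether they were made in another batch is not given in the sources used here, so batch, tissue content and genotype cannot be told apart here. The part of the fat and muscle content in the rises of *Kdr*, *Tek* and *Vegfb* was not tested for MG-N.

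Against MG-WT, 3 of the 17 blood endothelium genes rose and 3 fell in MG-N, and 2 rose and 2 fell in MG-NP, with medians of 0.14 and -0.09. *Gpihbp1*, which carries lipoprotein lipase across capillary endothelium of fat and muscle, rose by 3.68 and by 3.37, and *Egfl7* by 1.55 and by 1.51, while *Vwf* (-1.40 and -1.46) and *Plvap* (-1.29 and -1.36), a protein of fenestrated endothelium, fell. Of 8 mural cell genes 4 rose and 1 fell in MG-N (median 0.87) and 5 rose and 1 fell in MG-NP (median 1.51), and of 8 tip cell and sprouting genes 2 rose and 1 fell in each (medians 0.94 and 0.70). All 5 venous genes fell in both comparisons, led by the adhesion molecules of inflamed venules *Sele* (-5.22 and -4.51) and *Selp* (-3.45 and -3.46). *Sele* was at 1960 to 2082 normalized counts in MG-WT and at 31 to 121 in MG-N and MG-NP. Among the other VEGF genes *Vegfd* rose by 2.53 and by 1.61 and *Nrp1*, a coreceptor of VEGFR2, by 2.15 and by 1.62, while *Vegfc* fell (-1.12 and -1.36).

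Mutant p53 in fibroblasts is the comparison for which the mice were bred. Set against MG-N replicates 2, 3 and 4, the *NP* genotype adds Cre. Set against MG-N replicate 1 and all T-N samples, it adds the p53wm-R172H allele. The controls of glands and tumors, and so of the interaction, therefore differ in genotype. Effects of Cre or of the allele alone cannot be told apart from those of mutant p53 here. Between MG-NP and MG-N glands, 0 of the 10 genes were called with limma, edgeR or DESeq2. Of 18563 genes 0 (0%) were called with limma, where 1950 had an unadjusted p under 0.05, 0 with edgeR and 730 with DESeq2. The log2 fold changes of the 10 genes ran from -0.53 (*Angpt2*, 95% confidence interval -1.55 to 0.48) to 0.51 (*Vegfa*, -0.06 to 1.07). The interval of *Pecam1* was the narrowest, from -0.58 to 0.41. Of the 17 blood endothelium genes 0 were called.

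In T-NP against T-N, 0 of the 10 genes were called by any of the 3 tools, where limma called 7 of 16638 genes (0.0421%), with 1210 at an unadjusted p under 0.05, edgeR called 0 and DESeq2 called 120. The largest difference was that of *Vegfb* (-0.51, 95% confidence interval -1.29 to 0.27), followed by *Kdr* (-0.33, -0.90 to 0.24) and *Tek* (-0.31, -1.52 to 0.90). *Pecam1* differed by -0.08 (-0.54 to 0.39), and *Angpt1* had the widest interval (-0.05, -2.03 to 1.93). The interaction of tissue and genotype, which tests whether the step from gland to tumor differs between *N* and *NP*, called 0 of the 10 genes and 0 of 19367 genes with limma, with 1536 genes at an unadjusted p under 0.05, against 0 with edgeR and 368 with DESeq2. Its values were 0.23 (-0.74 to 1.20) for *Flt4* and 0.16 (-1.92 to 2.24) for *Angpt1*, and the largest was -0.61 (-1.65 to 0.44) for *Vegfb*. The intervals of T-NP against T-N did not reach the size of the fall from gland to tumor for *Pecam1*, *Cdh5*, *Kdr*, *Flt1* or *Tek*, whereas that of *Angpt1* did, and that of *Vegfb* reached the size of its fall in T-N against MG-N (-1.20) but not in T-NP against MG-NP (-1.80).

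Within the 8 tumors *Vegfa* varied from 2150 to 6511 normalized counts, and other members varied with it. *Vegfa* rose with the mean of 12 hypoxia response genes (Pearson r = 0.870, exact permutation p = 0.00712, adjusted p = 0.021, and Spearman rho = 0.857, exact permutation p = 0.0107, adjusted p = 0.0357) and with *Angpt2* (r = 0.837, exact permutation p = 0.00838, adjusted p = 0.021, and rho = 0.905, exact permutation p = 0.00456, adjusted p = 0.0228). It was inversely related to *Tek* (r = -0.873, exact permutation p = 0.00102, adjusted p = 0.0102, and rho = -0.929, exact permutation p = 0.00223, adjusted p = 0.0223) and to *Angpt1* (r = -0.789, exact permutation p = 0.00375, adjusted p = 0.0187, and rho = -0.810, exact permutation p = 0.0218, adjusted p = 0.0544). The other 6 members gave Pearson r from -0.593 (*Flt4*) to 0.574 (*Vegfb*), with adjusted p-values of 0.235 and above. These are 10 relations, adjusted together and chosen after the values were seen, on log2 values over 8 tumors of 2 genotypes. Without the 2 tumors furthest from the median of *Vegfa*, T-N replicates 3 and 2, r was 0.811 for the hypoxia list, 0.855 for *Angpt2*, -0.806 for *Tek* and -0.605 for *Angpt1* (n = 6).

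The direction of these 4 relations was the same within each genotype. In the 4 T-N tumors r was 0.938 with the hypoxia list, 0.832 with *Angpt2*, -0.969 with *Tek* and -0.809 with *Angpt1*, and in the 4 T-NP tumors it was 0.676, 0.877, -0.660 and -0.734, too few samples for a test. With T-NP replicates 1 and 2 averaged (n = 7), r was 0.894, 0.838, -0.879 and -0.832. T-N replicate 3, lowest in *Vegfa* and highest in *Tek* and *Angpt1*, is the tumor richest in fibroblast transcripts, and the part of normal stroma in these relations was not tested.

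**Figure D5:**
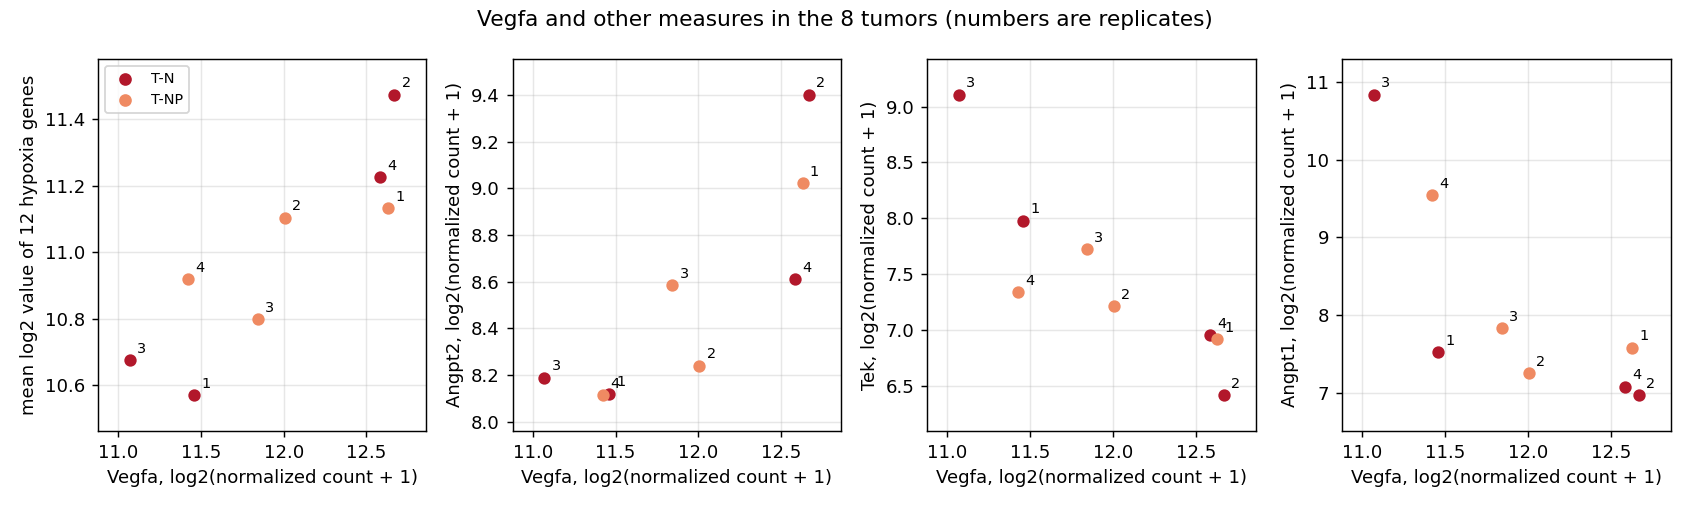
Log2(normalized count + 1) of *Vegfa* in the 8 tumors (horizontal axis) against the mean log2 value of 12 hypoxia response genes, *Angpt2*, *Tek* and *Angpt1* (vertical axes), with T-N in dark red, T-NP in orange and numbers for replicates. *Vegfa* rises with the first 2 measures (r = 0.870 and 0.837) and falls with the last 2 (r = -0.873 and -0.789).

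The hypoxia genes themselves moved in both directions between tissues. Of 12, 5 rose and 3 fell in T-N against MG-N, and 6 rose and 3 fell in T-NP against MG-NP. *Car9*, carbonic anhydrase IX, rose by 5.68 in both, and *Egln3*, a prolyl hydroxylase induced by HIF, by 4.36 and by 3.73. *Pfkfb3* (-3.82 and -3.12) and *Epas1* (-2.45 and -2.31), which encodes HIF-2α and is high in endothelium, fell in both. Of 7 angiogenesis inhibitors 2 rose and 2 fell in T-N against MG-N and 3 rose and 3 fell in T-NP against MG-NP. *Thbs1*, thrombospondin-1, rose by 2.23 and by 2.71, and *Sema3a* fell in both (-4.10 and -3.22).

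The profiles most like each member across all 19 libraries were found as the smallest root mean square difference of centered log2 values among 20272 genes. For *Pecam1* these were *Mmrn2* (0.170), *Nrp2* (0.222) and *Ldb2* (0.233), for *Cdh5* *Plxnd1* (0.234), *Arap3* (0.251) and *Tbc1d2b* (0.264), and for *Kdr* *Adgrl4* (0.333), *Slfn5* (0.360) and *Efr3b* (0.361). *Flt1* was nearest to *Emcn* (0.343), *Cdh5* (0.345) and *Abcc1* (0.370), and *Flt4* to *Cd93* (0.218), *Gpr137b* (0.269) and *Tmem8* (0.271). *Tek* was nearest to *Lama2* (0.340), *Dennd2a* (0.344) and *Rnase4* (0.345). None of these is in the endothelial lists used here, and the same holds for the nearest genes of *Cdh5*, *Kdr* and *Flt4*. *Vegfa* was nearest to *Lonp1* (0.353), *Ccdc22* (0.361) and *Ddit3* (0.378), *Vegfb* to *Pcca* (0.315), *Fra10ac1* (0.356) and *Sfxn4* (0.359), *Angpt1* to *Rftn2* (0.468), *Mir22hg* (0.550) and *Sprn* (0.591), and *Angpt2* to *Platr25* (0.362), *2700038G22Rik* (0.410) and *Recql4* (0.412). The smallest distance of *Angpt2* (0.362) stands beside the 0.535 by which its own values vary around their mean, and that of *Vegfa* (0.353) beside 0.609. For *Pecam1* these values were 0.170 and 1.12, so the nearest genes of *Angpt2* and *Vegfa* follow them less closely.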

How the data were processed

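RNA was measured in 19 mouse samples, and the labels give the group of each. Per the labels the libraries were made with a stranded total RNA kit, while the study's methods name an mRNA kit. The authors aligned reads to GRCm38/mm10 with TopHat2 2.1.1 and Bowtie2 and divided the counts of each library by a DESeq2 size factor. The counting tool and annotation are not given in the sources used here. The deposited values, signal on a normalized count scale, came out as whole reads for 100% of values after dividing by the step of each library (tolerance 0.05 reads). The step is the normalized count of a single read. Gene symbols were taken from GENCODE M21, which matched 45143 of 46078 identifiers.

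Values were tested on the scale of log2(normalized count + 1), on which a fold change understates that of low genes, with limma 3.58.1 (eBayes with trend, R 4.3.3). Each fit held the 2 groups compared (4 groups for the interaction) and genes with at least 10 normalized counts in as many samples as the smaller group. P-values were adjusted by the method of Benjamini and Hochberg over all genes tested, with a threshold of 0.05. Single genes were also tested by two-sided exact permutation with scipy 1.17.1. The fit was tested on simulated data before use. The labels do not say for every pair of samples that they came from separate mice, so p-values measure the spread between these samples. No 2 libraries of a group held identical values.

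Alternatives were pseudocounts of 0.5 and 5, no filter or a mean of at least 50, TMM scaling, edgeR 4.0.16 and DESeq2 1.42.0 on the recovered reads, all 5 groups in 1 fit, a replicate block, each replicate left out, T-NP replicates 1 and 2 averaged, the skeletal muscle score as a covariate and, chosen after the data were seen, MG-NP replicates 2 and 4 left out together. A further alternative counted only the calls with at least a 2-fold change (2-fold threshold). The genes and the 15 lists were chosen with earlier results of these data known. Of each list the genes named are at most the 2 with the largest called rise and fall in a comparison, and any further list genes were named after their values were seen. The 250 bases before each start come from RefSeq (GRCm38.p6).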

Additional observations from a re-analysis of the deposited data

Results flagged for a closer look

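In each group of 4 samples the highest or lowest value of a gene was set against the others by Dixon's ratio, the gap to the nearest value over the whole range and compared with the 95% critical value for 4 samples. Of 40 such groups 7 passed, and chance alone flags about 5.0% if values are normally distributed. The ratio was taken on normalized counts, not on log2 values, and their distribution was not tested. *Angpt1* was flagged in both tumor groups, at 1832 normalized counts in T-N replicate 3 (ratio 0.966) and at 744 in T-NP replicate 4 (ratio 0.872). *Pecam1* and *Cdh5* were flagged in the same gland, MG-NP replicate 1, at 7150 (ratio 0.844) and 4574 (ratio 0.869). *Pecam1* and *Flt4* were flagged in the same tumor, T-NP replicate 3, at 1438 (ratio 0.895) and 336 (ratio 0.938). *Vegfb* was flagged in T-N replicate 4 at 419 (ratio 0.835). The flagged value was the highest of its group in all 7 cases. T-N replicate 3 was also the tumor with the most fibroblast transcripts, and the part of these in its *Angpt1* level was not tested.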

How the results depend on the processing

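Under every alternative run, 7 or 8 of the 10 genes were called in T-N against MG-N, beside 34.7% to 55.9% of all genes. In MG-NP against MG-N 0 were called (0% to 3.93% of all genes), as in T-NP against T-N (0% to 0.721%) and for the interaction (0% to 1.9%). Of the 10 genes, 3 to 6 were called in MG-N against MG-WT (4 as reported), beside 37% (2-fold threshold) to 62.1% of all genes. In MG-NP against MG-WT (4 as reported) the number of the 10 called was 0 with the skeletal muscle score as a covariate. It was 2 without MG-NP replicates 2 and 4, and 1 to 5 with 1 replicate left out. The share of all genes called in that comparison was 51.5% without MG-NP replicates 2 and 4 and 30.8% to 48.2% with 1 replicate left out. Over all genes, T-NP against T-N gave 7 calls as reported, 59 without T-N replicate 1 and 0 without T-N replicate 2, 3 or 4 or any T-NP replicate, and MG-NP against MG-N gave 326 without MG-NP replicate 3. In T-NP against MG-NP (7 as reported) the number of the 10 genes called was 3 with the skeletal muscle score as a covariate. It was 6 to 8 with 1 replicate left out, where 48% to 54.3% of all genes were called. That covariate also lowered the calls over all genes from 8853 to 2150 in MG-NP against MG-WT and from 9929 to 5132 in T-NP against MG-NP, and its overlap with the tissue groups cannot be told apart from them.

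Replicate numbers did not pair the samples: the deviations of same-numbered samples from their group means correlated at -0.257 to 0.285. With a replicate block, 2 genes were called in MG-NP against MG-WT, beside 34.1% of all genes, and 6 in MG-N against MG-WT, beside 51.5%. In MG-NP against MG-WT *Kdr* (1.33, adjusted p = 0.105) and *Tek* (0.71, adjusted p = 0.0711) were not called and *Angpt2* turned to 0.11. The block left the counts of the other 5 comparisons as reported.

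Of called values, 1 changed sign: *Tek* in MG-NP against MG-WT, to -0.61 with the muscle covariate. The other changes of sign were of values that had missed the threshold, and their cause was not tested. With the muscle covariate these were, in MG-NP against MG-WT, *Flt1* (-0.84), *Angpt1* (-0.86) and *Angpt2* (1.08), in T-NP against MG-NP *Angpt2* (-0.51), in MG-NP against MG-N *Vegfb* (-0.39), and for the interaction *Kdr* (0.18), *Flt1* (0.43) and *Angpt2* (-0.10). Without MG-NP replicates 2 and 4 they were, in MG-NP against MG-WT, *Angpt1* (-0.053) and *Angpt2* (0.41), in T-NP against MG-NP *Vegfa* (0.084) and *Angpt2* (-0.19), in MG-NP against MG-N *Pecam1* (0.10), *Kdr* (0.046), *Flt4* (0.18), *Vegfb* (-0.48) and *Angpt2* (0.0032), and for the interaction *Pecam1* (-0.18), *Cdh5* (-0.089), *Flt1* (0.072), *Flt4* (-0.26) and *Angpt2* (-0.093). With edgeR and DESeq2 they were *Kdr* in MG-NP against MG-N (0.024 and 0.029), *Vegfa* in T-NP against T-N (-0.055 and -0.063), and for the interaction *Tek* (-0.29 and -0.31), *Angpt1* (-0.58 and -0.62) and, with DESeq2, *Pecam1* (-0.0049). With T-NP replicates 1 and 2 averaged they were *Vegfa* (-0.084) and *Angpt1* (0.16) in T-NP against T-N and *Flt1* (0.019) for the interaction.

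With 1 replicate left out, the values that changed sign ranged as follows. In MG-N against MG-WT *Pecam1* ranged from -0.0094 to 0.28. In MG-NP against MG-WT *Pecam1* ranged from -0.10 to 0.20, *Cdh5* from -0.057 to 0.31, *Flt4* from -0.056 to 0.48 and *Angpt2* from -0.37 to 0.11. In T-N against MG-N *Vegfa* ranged from -0.024 to 0.51 and *Angpt2* from -0.42 to 0.12. In MG-NP against MG-N *Pecam1* ranged from -0.24 to 0.054, *Kdr* from -0.50 to 0.11, *Flt1* from -0.26 to 0.23 and *Vegfb* from -0.17 to 0.37. In T-NP against T-N *Pecam1* ranged from -0.20 to 0.10, *Flt1* from -0.25 to 0.029, *Flt4* from -0.23 to 0.12, *Tek* from -0.71 to 0.19, *Vegfa* from -0.26 to 0.27, *Angpt1* from -0.55 to 0.86 and *Angpt2* from -0.27 to 0.18. For the interaction *Pecam1* ranged from -0.13 to 0.18, *Cdh5* from -0.15 to 0.31, *Kdr* from -0.44 to 0.16, *Flt1* from -0.34 to 0.15, *Tek* from -0.37 to 0.52 and *Angpt1* from -0.34 to 1.07. With 3 or 4 samples a group, the intervals given in the report, and not the missed thresholds, bound what the genotype comparisons can show.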
